A study of Mus musculus with 29 samples.

Results

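Trem2 and Tyrobp, the genes of a surface receptor of myeloid cells and of the adaptor through which it signals, were followed by name through every cell type of a mouse stroke series. The members are 2 of the 27827 gene symbols listed in any of its tables, and both were listed in all 29 libraries. Expression was measured by Drop-seq, a method that tags the RNA of each cell with the barcode of a bead sharing its droplet. All mice were C57BL/6J. In the stroke groups the middle cerebral artery was blocked for a time and then reopened, and the control groups had sham surgery. Young brain came from males aged 8 to 10 weeks, in 3 groups of 4 libraries: sham (taken on day 2), stroke on day 2 and stroke on day 14. Aged brain came from mice aged 17 to 20 months. Its sham group, also of day 2, had 1 male and 1 female library, its day 2 stroke group had 1 male and 2 female libraries, and its day 14 stroke group had a single female library. Blood came from young males, with 4 sham libraries, 4 libraries of stroke on day 2 and 3 of stroke on day 14. Each brain library pooled 4 to 5 hemispheres. From these, cells with intermediate or high CD45, which cover microglia and other immune cells, were sorted together with CD45-negative, Ly6c-high endothelial cells. Each blood library pooled leukocytes of 2 mice after removal of red cells. Inhibitors were present during preparation in every group, namely Brilliant Blue G and actinomycin D, a blocker of transcription, and in brain also AP-5. Sham libraries exist at day 2 only, so in every comparison of day 14 with sham the surgery and the days elapsed cannot be told apart.

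TREM2 binds lipids, lipoproteins such as apolipoprotein E and cell debris, but has no signalling motif of its own. It pairs in the membrane with the adaptor DAP12, the product of Tyrobp, whose ITAM motif recruits the kinase SYK once phosphorylated. In the brain the receptor is known from microglia, where it is needed for the full change of state called disease-associated microglia, while DAP12 also serves receptors of monocytes, neutrophils and natural killer (NK) cells.

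Trem2 (ENSMUSG00000023992.14) lies on the plus strand of chr17:48346401-48354147 in GRCm38 (GENCODE vM21), within a row of related receptor genes that starts with Trem1, Trem3, Treml4 and Treml2. Treml2 ends 33867 bases before it and Treml1 begins 5768 bases after it. Tyrobp (ENSMUSG00000030579.10) lies on the plus strand of chr7:30413760-30417585. The gene of a second adaptor, Hcst, lies on the opposite strand with its end 126 bases from the end of Tyrobp, and whether strand was used in the counting is not given in the sources used here. The 250 bases before the start of Trem2 are shown because the level of Trem2, more than that of Tyrobp, separated the myeloid cell types described here. They are from RefSeq on GRCm38.p6 (chr17:48346151-48346400, plus strand), with capitals marking 2 motif matches.
Trem2 promoter: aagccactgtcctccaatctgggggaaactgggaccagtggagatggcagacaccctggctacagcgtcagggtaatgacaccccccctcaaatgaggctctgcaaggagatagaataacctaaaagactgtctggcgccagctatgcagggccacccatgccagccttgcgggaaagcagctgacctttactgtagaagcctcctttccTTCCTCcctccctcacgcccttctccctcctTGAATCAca
The first run of capitals is GAGGAA read on the opposite strand, the core bound by the myeloid factor PU.1, 40 bases before the start. The second, TGAATCA, lies 9 bases before the start and matches TGANTCA, a loosened form of the AP-1 motif. The usual AP-1 motif has C or G as its middle base, which this stretch does not have. The same 250 bases of all 32851 promoters of the RefSeq table were searched on both strands, and 23.3% held GAGGAA and 6.75% held TGANTCA. The E-box CACGTG, as bound by Mitf and Tfeb, was not in the Trem2 window and was in 6.02% of promoters. These matches are a description of letters and not of bound sites, and Tyrobp had no entry in the table.

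Libraries held 1143 to 6328 cells and 819438 to 5855047 expected counts, and the median cell of a library held 321 to 1363 counts. The authors' cell type names were used, and counts were summed per library and type where at least 20 cells were present. Levels are given as CPM, a type's counts scaled to a fixed total and not adjusted for gene length, so the levels of the 2 genes are not compared with each other. The names were checked against marker lists. The microglial list was highest in cells named microglia and the monocyte list in cells named monocyte-derived cells and blood monocytes. In cells named border-associated macrophages all 7 of their markers were detected in every group, but the monocyte list was the highest list in each young group and in the aged day 14 library. The monocyte list was also the highest, per gene, in cells named dendritic cells in all 9 brain and blood groups, with all 10 dendritic cell markers detected in each young brain group. Microglia of 1 library, the third of young stroke at day 2, went against their name. Its 58 such cells (26321 counts) had 820 CPM of the 10 microglial markers together, with Sall1, Fcrls, Gpr34, Olfml3 and Sparc at 0, against 17944 to 33659 CPM in the other 11 young libraries. P2ry12 stood at 3.25 CPM there, against 654 to 3566 CPM elsewhere, and the monocyte list at 4480 CPM, against 234 to 3083 CPM. The main microglial values that rest on this library are therefore given with and without it. Over all its cells, 12.8% of the library's non-zero values were so small that each alone would round to 0. In the other young brain libraries this share was 0.670% to 4.85%, and its part in the microglial values was not tested.

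Trem2 transcripts were concentrated in microglia, and Tyrobp transcripts were spread over all myeloid cells and NK cells. Over the 12 young brain libraries, Trem2 had a median of 1726 CPM in microglia (617 to 3158), or 1736 (1411 to 3158) without the library with few microglial markers. It had a median of 512 CPM in border-associated macrophages and of 366 CPM in monocyte-derived cells, the cells that enter the brain from blood. Dendritic cells followed at 46.1 CPM and granulocytes at 27.0 CPM, while endothelial cells, T cells and B cells of the brain had medians at or near 0. In blood, monocytes had a median Trem2 level of 72.3 CPM (39.5 to 113 over 11 libraries), and Trem2 had no count in 1549 blood NK cells or 295 cells of the eosinophil and basophil class. These zeros allow a share of cells with a count of up to 0.194% and 1.02%. The ranges of monocyte-derived cells and border-associated macrophages overlapped, so their order does not rest on separate values, while every blood monocyte library lay below every microglia library.

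Tyrobp had its highest median in blood neutrophils, 6119 CPM, followed by brain granulocytes at 4169 CPM, blood monocytes at 4127 CPM and the eosinophil and basophil class at 4083 CPM. Microglia came next at 3279 CPM, with monocyte-derived cells at 3139 CPM and border-associated macrophages at 2639 CPM. Without the library with few microglial markers the microglial median of Tyrobp was 2760 CPM, below that of monocyte-derived cells. Dendritic cells had 2737 CPM in blood and 1984 CPM in brain, and NK cells 2426 CPM in blood and 1516 CPM in brain. These neighbours overlapped over libraries. T cells and B cells formed a separate low class, at 173 and 225 CPM in brain and 86.5 and 14.5 CPM in blood, and endothelial cells stood near 0.

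**Figure D1:**
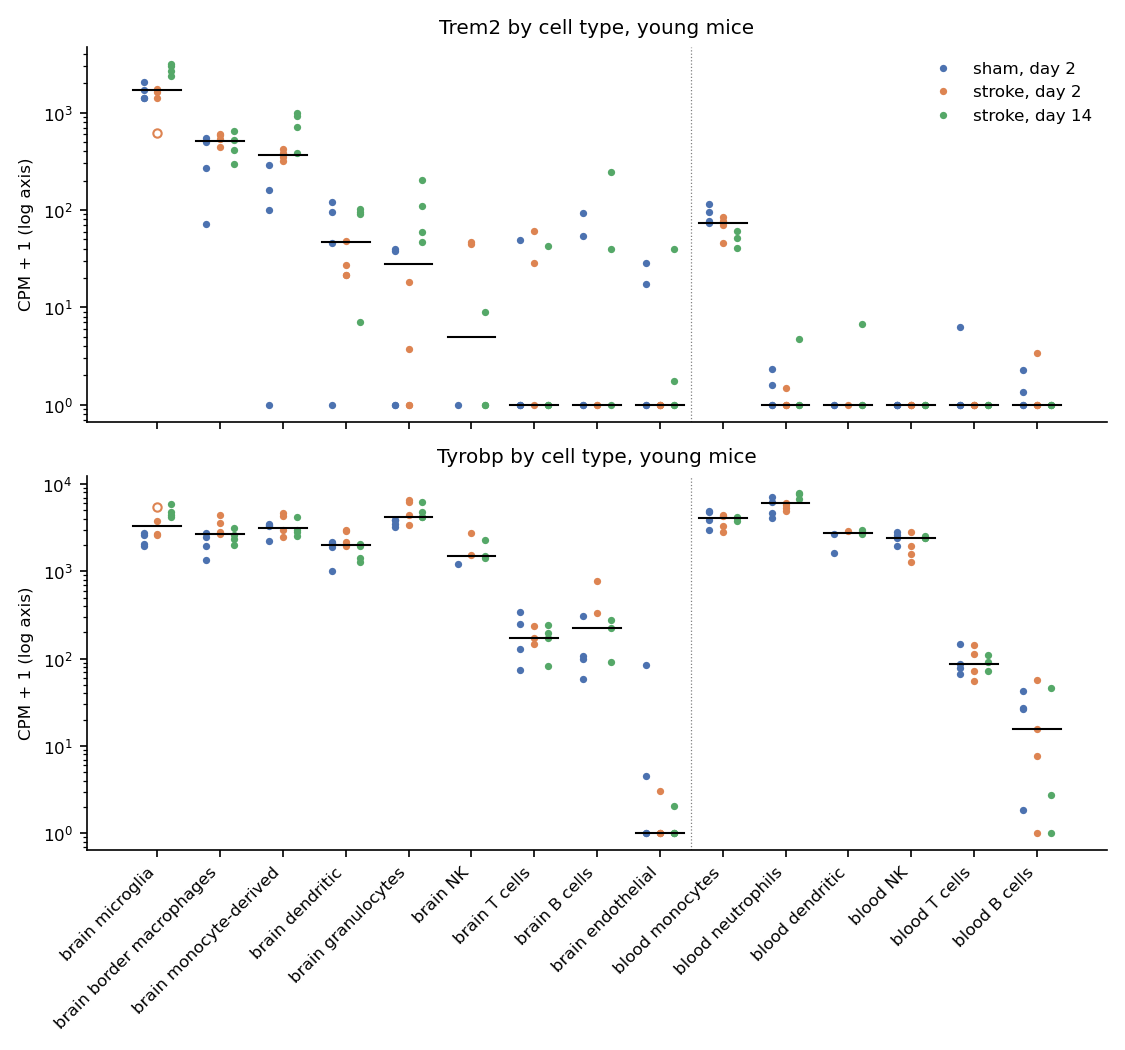
CPM (plus 1, log axis) of Trem2 and Tyrobp by cell type in the young brain and blood libraries, with 1 point per library, a black line at the median and an open circle for the third library of stroke at day 2 in microglia. Trem2 is highest in microglia (median 1726 CPM) and at or near 0 in lymphocytes, while Tyrobp is above 1000 CPM in every myeloid type and in NK cells.

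Microglia held 97.7% ± 1.55 (SD, n = 4) of all Trem2 counts of a young sham brain library and 81.0% ± 6.48 of its Tyrobp counts. At stroke day 2 their part of Trem2 was 52.5% ± 36.3 and ran from 1.17% to 86.8%, and that of monocyte-derived cells was 45.2% ± 35.5. Without the third library these were 69.6% ± 15.0 and 28.7% ± 15.8 (n = 3). For Tyrobp at day 2 the parts were 25.3% ± 20.6 in microglia and 64.0% ± 19.6 in monocyte-derived cells, or 33.4% ± 15.5 and 56.4% ± 15.2 without that library. At day 14 microglia again held most of both, with 84.4% ± 7.51 of Trem2 and 64.2% ± 9.26 of Tyrobp. These parts depend on how many cells of each type were sorted, so they describe the libraries and not the tissue. In blood, monocytes held 96.4% ± 2.76 of Trem2 counts in sham, 94.9% ± 6.22 at day 2 and 95.1% ± 4.30 at day 14 (n = 4, 4 and 3), whereas neutrophils held 63.4%, 75.3% and 49.3% of Tyrobp counts.

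The first comparison asked how both genes stood in microglia after stroke. Trem2 was near its sham level at day 2 and higher at day 14. In CPM the sham libraries had 2050, 1716, 1429 and 1411, the day 2 libraries 1624, 1426, 617 and 1736, and the day 14 libraries 2993, 2687, 3158 and 2382. All 4 day 14 libraries lay above all sham and day 2 libraries, the lowest day 2 value was that of the library with few microglial markers, and sham and day 2 overlapped. Group means were 1651 ± 300 (SD, n = 4) in sham, 1351 ± 506 at day 2 (1596 ± 157 without that library, n = 3) and 2805 ± 343 at day 14. By edgeR's quasi-likelihood test with Benjamini-Hochberg adjustment over 10145 genes, Trem2 rose 2.35-fold from sham to day 14 (log2 fold change 1.23 ± 0.35 SE, adjusted p = 0.0303) and 2.52-fold from day 2 to day 14 (1.33 ± 0.35, adjusted p = 0.0354). At day 2 its log2 fold change against sham was -0.10 ± 0.34 (edgeR, adjusted p = 0.852). An approximate 95% interval, taken from a normal spread and narrower than the edgeR test implies, ran from -0.78 to 0.57. The background of these calls is broad: edgeR called 31.4% of all genes at day 2 against sham, 15.2% at day 14 against sham and 6.93% at day 14 against day 2. Both sets of stroke libraries were set against the same 4 sham libraries.

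The marker lists moved with these groups. The summed microglial markers were at 24345 to 33659 CPM in the sham microglia, 18952 to 19064 CPM in the day 2 libraries other than the third, and 17944 to 22306 CPM at day 14. The summed monocyte markers were at 234 to 396, 520 to 1131 and 2125 to 3083 CPM in the same libraries, and the part of these shifts in the results on Trem2 and Tyrobp was not tested.

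Tyrobp in microglia was higher at day 14 as well, and its day 2 libraries were spread between the other groups. The sham libraries had 2760, 2575, 1962 and 2052 CPM, the day 2 libraries 2641, 2615, 5420 and 3798, and the day 14 libraries 4799, 4412, 5920 and 4138. Every day 14 value exceeded every sham value, and 5420 CPM at day 2 came from the library with few microglial markers. Tyrobp rose 2.85-fold from sham to day 14 (edgeR, log2 fold change 1.51 ± 0.30, adjusted p = 0.00439). At day 2 it did not pass the test against sham (0.70 ± 0.29, adjusted p = 0.0838), and neither did day 14 against day 2 (0.81 ± 0.29, adjusted p = 0.113).

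Without the third day 2 library, the edgeR fold changes of Trem2 in microglia were 0.14 ± 0.22 on the log2 scale at day 2 (adjusted p = 0.637), 1.22 ± 0.21 at day 14 (adjusted p = 0.00263) and 1.07 ± 0.23 from day 2 to day 14 (adjusted p = 0.0163). The direction at day 2 thus turned with that library, with no call in either fit. For Tyrobp they were 0.57 ± 0.26 (adjusted p = 0.115), 1.5 ± 0.25 (0.00212) and 0.93 ± 0.27 (0.0591). In this smaller set edgeR called 27.5%, 14.4% and 6.63% of 11084 genes in the same 3 comparisons. The Trem2 calls were close to the threshold when all libraries were used. Leaving out sham library 2, 3 or 4 or day 14 library 1, 2 or 3, each in turn, took the day 14 call against sham to adjusted p-values of 0.0705, 0.0773, 0.0848, 0.0694, 0.0525 and 0.0608, with log2 fold changes of 1.28, 1.19, 1.18, 1.21, 1.26 and 1.13. For day 14 against day 2, the call was lost without day 2 library 1, 2 or 4 (edgeR, adjusted p = 0.0807, 0.0693 and 0.0530) and without day 14 library 1, 2, 3 or 4 (0.0755, 0.0510, 0.0663 and 0.0574), with log2 fold changes from 1.24 to 1.54. It was also lost with no filter on low counts (0.0897), with counts rounded up (0.117), with only the compared groups (0.0848) and within the libraries of higher mitochondrial share (0.189). Using the replicate number as a block ended this call too. The Tyrobp call at day 14 against sham held without any single library, and at day 2 the single omission that let Tyrobp pass was that of day 2 library 1 (0.98, edgeR, adjusted p = 0.0441).

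The scaling of the libraries also moved these values. When TMM was dropped and the library sizes alone were used, all genes of microglia at day 14 had a median log2 fold change of -0.49 against sham instead of -0.04, and the calls went from 1071 higher and 473 lower to 670 and 2755. Trem2 then stood at 0.77 (edgeR, adjusted p = 0.0552), still higher but no longer called. In monocyte-derived cells the use of library sizes alone moved the calls at day 2 from 457 higher and 85 lower to 180 and 175, and at day 14 from 340 and 76 to 200 and 199. Rounding the counts up per cell ended the microglial calls of both genes at day 14 against sham, at 1.21 for Trem2 (edgeR, adjusted p = 0.116) and 1.48 for Tyrobp (0.0669). Within the 7 libraries with a mitochondrial share of at least 1% (the other 5 had 0.235% to 0.559%), Trem2 stood at 1.33 on the log2 scale (adjusted p = 0.130) and Tyrobp at 1.66 (0.0516) at day 14 against sham, and with that split as a term in the model at 1.19 (0.0305) and 1.56 (0.00267).

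**Figure D2:**
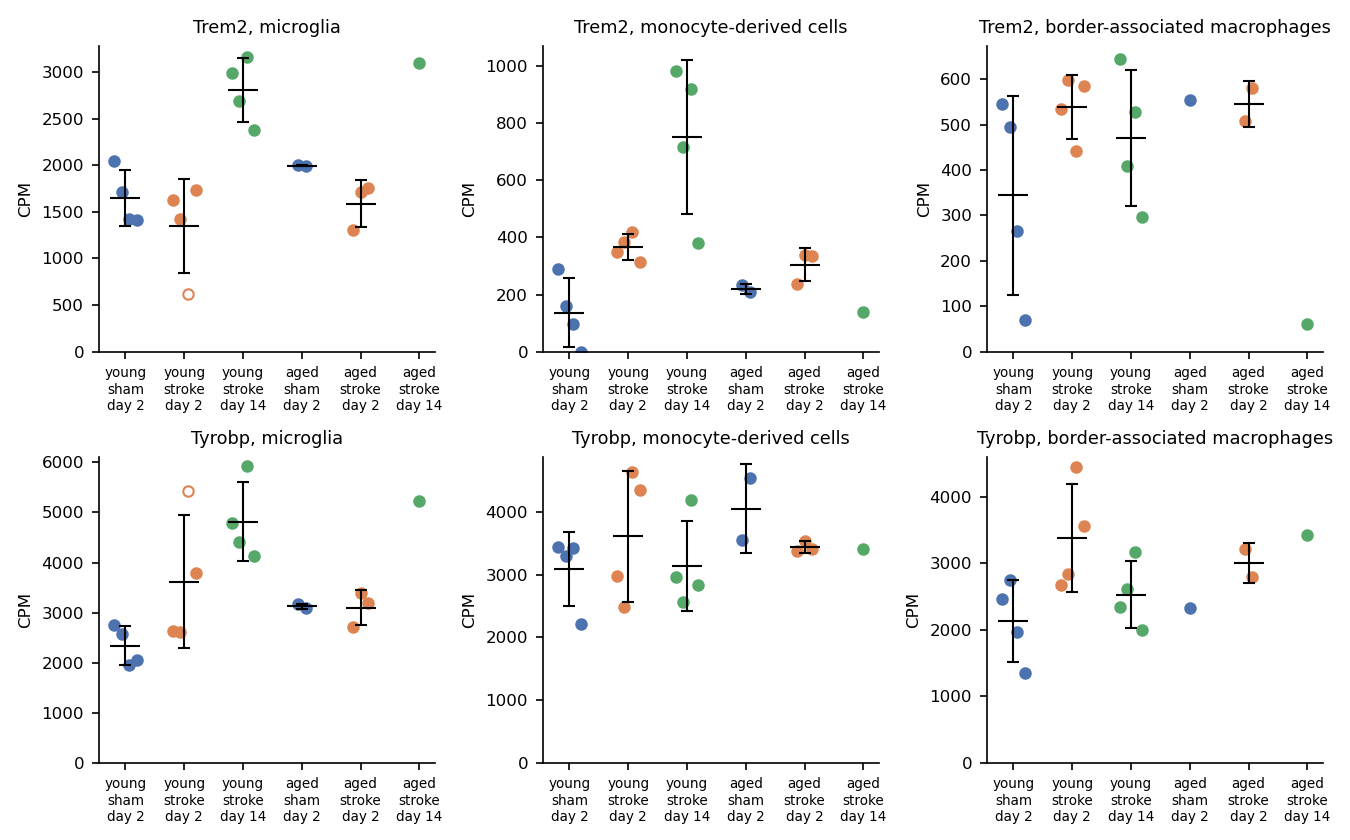
CPM of Trem2 (top) and Tyrobp (bottom) in microglia, monocyte-derived cells and border-associated macrophages in the 6 brain groups, with 1 point per library, bars for the mean ± SD and an open circle for the microglia of the third library of young stroke at day 2. The 4 young day 14 libraries lie above the 4 young sham libraries for both genes in microglia and for Trem2 in monocyte-derived cells.

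In monocyte-derived cells Trem2 was higher after stroke and Tyrobp was not called. Trem2 stood at 289, 160, 98.6 and 0 CPM in the sham libraries, 350, 385, 418 and 314 CPM at day 2, and 983, 719, 920 and 382 CPM at day 14. All stroke libraries lay above all sham libraries, and the fourth day 14 library lay within the day 2 range. The sham values rest on 43 to 99 cells and on 32.4, 9.25, 3.99 and 0 Trem2 counts, and 0 counts in the fourth library allow up to 164 CPM. Trem2 rose 5.92-fold from sham to day 14 (edgeR, log2 fold change 2.57 ± 0.47, adjusted p = 0.00415), and by 3.28 ± 0.53 on the log2 scale without sham library 1 (adjusted p = 0.00649). At day 2 its value of 1.57 ± 0.46 missed the threshold (adjusted p = 0.0562), as did day 14 against day 2 (1.00 ± 0.39, adjusted p = 0.296). The call at day 2 depended on the model: DESeq2 gave 1.41 (adjusted p = 0.0259), and leaving out sham library 1 gave 2.28 (edgeR, adjusted p = 0.0347). In these cells edgeR called 6.71%, 5.15% and 1.79% of 8080 genes in the 3 comparisons. Same-numbered libraries of the 2 stroke groups deviated together in these cells, and with the replicate number as a block 5.8% of genes were called at day 14 against day 2. Trem2 then stood at 0.89 ± 0.34 (edgeR, adjusted p = 0.143) and Tyrobp at -0.26 ± 0.35 (0.770), neither of them called.

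Tyrobp in monocyte-derived cells had 3096 ± 594 CPM in sham, 3614 ± 1049 at day 2 and 3140 ± 726 at day 14 (SD, n = 4 each). Its edgeR log2 fold changes were 0.71 ± 0.33 at day 2 (adjusted p = 0.249), 0.45 ± 0.33 at day 14 (0.578) and -0.26 ± 0.33 between the days (0.870), and the groups overlapped. The summed microglial markers moved with Trem2 in these cells. They were 756, 275, 234 and 45.9 CPM in the sham libraries, with 0, 6, 7 and 9 of 10 markers at 0, then 932, 935, 403 and 270 CPM at day 2, and 2692, 1954, 1833 and 373 CPM at day 14. Their part in the Trem2 result was not tested. The monocyte list stayed between 26448 and 55714 CPM in all 12 libraries of these cells.

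Border-associated macrophages, which line vessels and meninges, gave no call for either gene. Trem2 had 545, 496, 267 and 70.4 CPM in sham, 535, 598, 442 and 584 CPM at day 2, and 645, 410, 527 and 297 CPM at day 14. The groups overlapped, and the lowest value rests on 1.30 counts. In that sham library the summed markers of these macrophages were at 3362 CPM, against 13082 to 14721 CPM in the other 3. The summed microglial markers were at 264 CPM there, against 1661 to 3823 CPM, and the part of either in its low Trem2 was not tested. The edgeR log2 fold changes of Trem2 were 0.48 ± 0.39 (adjusted p = 0.488), 0.42 ± 0.40 (0.928) and -0.06 ± 0.41 (0.974). Those of Tyrobp were 0.62 ± 0.31 (adjusted p = 0.244), 0.24 ± 0.31 (0.963) and -0.38 ± 0.31 (0.583), from means of 2131 ± 614 CPM in sham, 3377 ± 811 at day 2 and 2527 ± 498 at day 14. With 1313 genes tested, edgeR called 2.67%, 0.0762% and 0.838% of genes, so few genes of any kind passed in these small samples. In brain granulocytes the level of Tyrobp was 3620 ± 311, 5138 ± 1529 and 4822 ± 961 CPM in sham, at day 2 and at day 14, with edgeR log2 fold changes against sham of 0.33 ± 0.31 (adjusted p = 0.586) and 0.04 ± 0.31 (0.950), where 8.35% and 26.1% of 994 genes were called. In brain dendritic cells its mean was 1794, 2506 and 1668 CPM, with 0.49 ± 0.28 (edgeR, adjusted p = 0.442) and -0.10 ± 0.28 (0.953), where 1.01% and 1.53% of 4365 genes were called.

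In blood monocytes Trem2 stood low and Tyrobp high, and neither was called. Trem2 had 89.2 ± 18.7 CPM in sham (72.3 to 113), 68.3 ± 16.6 at day 2 (45.2 to 83.9) and 49.6 ± 9.83 at day 14 (39.5 to 59.2). All 3 day 14 libraries lay below all 4 sham libraries, and the day 2 libraries overlapped both. For day 14 against sham, edgeR's log2 fold change was -0.87 ± 0.28, with an unadjusted p of 0.00591 and an adjusted p of 0.410. Tyrobp had 4119 ± 917, 3697 ± 778 and 4025 ± 225 CPM (n = 4, 4 and 3) and log2 fold changes between -0.14 and 0.09. Of 6706 genes, edgeR called 0% at day 2 against sham (189 genes had an unadjusted p under 0.05), 0.254% at day 14 against sham and 0.537% at day 14 against day 2.

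In blood neutrophils, where Trem2 did not pass the filter on low counts, Tyrobp had 5531 ± 1393 CPM in sham, 5518 ± 529 at day 2 and 7419 ± 658 at day 14. After TMM scaling these gave edgeR log2 fold changes of -0.00 ± 0.22, 0.09 ± 0.24 and 0.09 ± 0.24, with approximate 95% intervals within -0.44 and 0.56. The called share of 4944 genes was 0% (209 genes had an unadjusted p under 0.05), 5.99% and 4.69%.

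Within the same brain libraries, Trem2 was lower in both other macrophage types than in microglia, in every group. With library as a block, edgeR's log2 difference of monocyte-derived cells from microglia was -3.34 ± 0.34 in sham (adjusted p = 3.54e-21), -1.48 ± 0.28 at day 2 (0.000490) and -1.91 ± 0.17 at day 14 (5.18e-06). For border-associated macrophages against microglia it was -1.96 ± 0.24 (1.92e-14), -1.30 ± 0.22 (0.00104) and -2.88 ± 0.34 (1.37e-15). Without the third day 2 library the day 2 differences were -1.86 ± 0.19 (edgeR, adjusted p = 3.52e-05) and -1.70 ± 0.24 (4.86e-11). Tyrobp showed no such order in sham or at day 2, with 0.42 ± 0.26 (adjusted p = 0.218) and 0.45 ± 0.20 (0.0872) for monocyte-derived cells, and 0.01 ± 0.23 (0.980) and -0.05 ± 0.14 (0.837) for border-associated macrophages. At day 2 without that library it gave 0.43 ± 0.18 (edgeR, adjusted p = 0.0754) and -0.22 ± 0.20 (0.550). At day 14 Tyrobp was lower in both than in microglia, by -0.57 ± 0.11 (adjusted p = 0.00235) and -1.33 ± 0.32 (0.000518) on the log2 scale. Without the library as a block Tyrobp's calls ended, at -0.55 (edgeR, adjusted p = 0.192) and -1.29 (0.0710). In sham, leaving out library 4 gave a Tyrobp call for monocyte-derived cells (0.59, edgeR, adjusted p = 0.0345), and DESeq2 gave one at day 2 (0.33, adjusted p = 0.0241). Cell types differ in many genes: edgeR called 32.5%, 42.1% and 36.1% of genes between monocyte-derived cells and microglia in the 3 groups, and 22.6%, 26.1% and 12.2% between border-associated macrophages and microglia. That the differences themselves changed between groups was not tested. The p-values in sham, for border-associated macrophages at day 14 and the 4.86e-11 at day 2 follow a normal curve. In those fits edgeR took the spread wholly from genes of like level. They therefore do not measure the spread of Trem2 or Tyrobp itself over so few libraries, and p-values are not compared between groups here.

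Between tissues, Trem2 was higher in monocyte-derived cells of the brain than in monocytes of the blood after stroke. The fold was 6.05 at day 2 (edgeR, log2 2.60 ± 0.24, adjusted p = 1.41e-05) and 18.5 at day 14 (4.21 ± 0.38, adjusted p = 6.35e-05). No brain library overlapped a blood library. The lowest monocyte-derived value after stroke was 314 CPM and the highest blood monocyte value after stroke 83.9 CPM. Tyrobp did not separate them, at 0.26 ± 0.35 (adjusted p = 0.631) and -0.09 ± 0.24 (0.841). Nor did Tyrobp separate brain granulocytes from blood neutrophils, at -0.10 ± 0.37 (edgeR, adjusted p = 0.911) and -0.53 ± 0.32 (0.235). DESeq2 called the second of these (-0.65, adjusted p = 0.0132). Between monocyte-derived cells and blood monocytes edgeR called 24.7% and 19.9% of genes at the 2 times, and between granulocytes and neutrophils 9.16% and 27.3%. Tissue, dissociation and sorting differ together here and cannot be told apart.

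In the aged brain groups neither gene was called in microglia at day 2. Trem2 had 1998 and 1996 CPM in the 2 aged sham libraries, 1303, 1712 and 1753 CPM in the 3 aged stroke libraries at day 2, and 3102 CPM in the single day 14 library, which allows no test. Tyrobp had 3130 ± 49.0 CPM, 3098 ± 348 CPM and 5230 CPM. Aged stroke at day 2 against aged sham gave edgeR log2 fold changes of -0.26 ± 0.47 for Trem2 (adjusted p = 0.863) and 0.05 ± 0.37 for Tyrobp (0.987), where 2.3% of 11096 genes were called. The aged and young sham microglia differed by 0.33 ± 0.44 and 0.48 ± 0.35 (adjusted p = 1 for both, 0.0180% of genes called). The interaction of age and stroke was -0.21 ± 0.59 for Trem2 (adjusted p = 0.999) and -0.63 ± 0.47 for Tyrobp (0.804), or -0.48 ± 0.35 (0.774) and -0.60 ± 0.39 (0.758) without the third young day 2 library, with 0% of genes called and 623 at an unadjusted p under 0.05. These intervals are wide, the one for Trem2 reaching from -1.37 to 0.95, and age is partly confounded with sex because the young mice were all male. Age also goes wholly with the set of tables, which list 27514 genes for aged brain and 19704 for young brain. The 2 cannot be told apart.

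In aged monocyte-derived cells, Trem2 had 220 ± 16.9 CPM in sham (n = 2), 305 ± 57.2 at day 2 (n = 3) and 140 in the day 14 library, which rests on 87 cells. The edgeR log2 fold change at day 2 was 1.16 ± 0.58 for Trem2 (adjusted p = 0.316) and 0.43 ± 0.43 for Tyrobp (0.676), with 2.56% of 8167 genes called. Between aged and young sham, and for the interaction, 0% of genes were called (546 and 473 had an unadjusted p under 0.05), and the interaction was -0.43 ± 0.72 for Trem2 and -0.34 ± 0.54 for Tyrobp. In aged border-associated macrophages Trem2 had 554 CPM in 1 sham library, 545 ± 51.5 in 2 libraries of day 2 and 61.2 in the day 14 library. In that last library the border-associated macrophage list was at 4518 CPM, against 9002 to 15187 CPM in the other aged libraries. The microglial list was at 542 CPM there, against 3337 to 4522 CPM, and the part of either in its low Trem2 was not tested.

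Among the authors' microglial subtypes, Mg3, which prevailed at day 14, had a higher Trem2 mean then than any subtype in sham. These subtypes were clustered on the same genes, so their levels are a description. In sham libraries Mg1 and Mg2 held 53.0% and 37.8% of microglia, and Trem2 stood between 1501 and 1777 CPM in every subtype with a value. At day 2 Mg4 and Mg5 prevailed, with 52.0% and 26.4%, or 37.1% and 34.6% without the third library, whose microglia were 96.6% Mg4. Mg4 had 1327 CPM of Trem2 with that library and 1546 ± 166 CPM without it (n = 3). In the other 3 day 2 libraries Mg5 had 1426 CPM, Mg1 2378 CPM and Mg3 2232 CPM, and Mg2 had 2448 CPM in 2 of them. At day 14 Mg3 held 69.6% and had 2911 ± 307 CPM of Trem2 (n = 4), while Mg7, with 5.97% of microglia, had 2891 ± 467 CPM and Mg6, with 9.31%, had 2193 ± 409 CPM (n = 2). Mg3 thus had a higher Trem2 mean at day 14 than its 1639 CPM in 2 sham libraries, a difference within the subtype. The sham values of Mg3 rest on few cells, 1.21% of 3293 microglia in sham library 2 and 0.968% of 3100 in sham library 4. Tyrobp in Mg3 went from 2945 CPM in sham to 3738 CPM at day 2 and 5041 CPM at day 14. Weighting each library's subtype levels by the mean sham shares gave Trem2 means of 1660 ± 305 CPM in sham, 1916 ± 846 at day 2 and 2365 ± 354 at day 14, and Tyrobp means of 2349, 3813 and 3203 CPM. Without the third day 2 library, in which Mg4 alone stands for all subtypes, the day 2 means were 2331 ± 200 CPM for Trem2 and 3130 ± 437 CPM for Tyrobp (n = 3). With equal weights, the Trem2 means without that library were 1904 ± 225 CPM at day 2 and 2636 ± 442 at day 14. Those of Tyrobp were 3260 ± 545 and 4458 ± 1013 CPM, so how far day 2 lies from day 14 depends on the weights. The sham means with equal weights were 1622 ± 178 CPM of Trem2 and 2505 ± 340 CPM of Tyrobp. For both genes and both weightings, the sham mean lay below the day 2 mean without the third library. This adjustment is weak after stroke. The subtypes with a value covered as little as 1.06% of the sham weights in the third day 2 library and 5.64% in a day 14 library. Without the third library the lowest coverage at day 2 was 56.0%.

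Among monocyte-derived subtypes, MdC6 had the highest Trem2 mean after stroke, 841 ± 137 CPM at day 2 (n = 3) and 1283 ± 375 CPM at day 14 (n = 4). MdC1 had 579 ± 80.7 CPM at day 2, and MdC3 had 169 CPM at day 2 and 222 CPM at day 14. Tyrobp varied less over these subtypes, with means of 2812 to 4251 CPM. In sham, BAM2 had 165 CPM of Trem2, BAM1 502 CPM and BAM3 657 CPM. In blood, Mo1 and Mo2 had 113 and 125 CPM of Trem2 in sham, and Mo3 had 35.6 CPM.

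**Figure D3:**
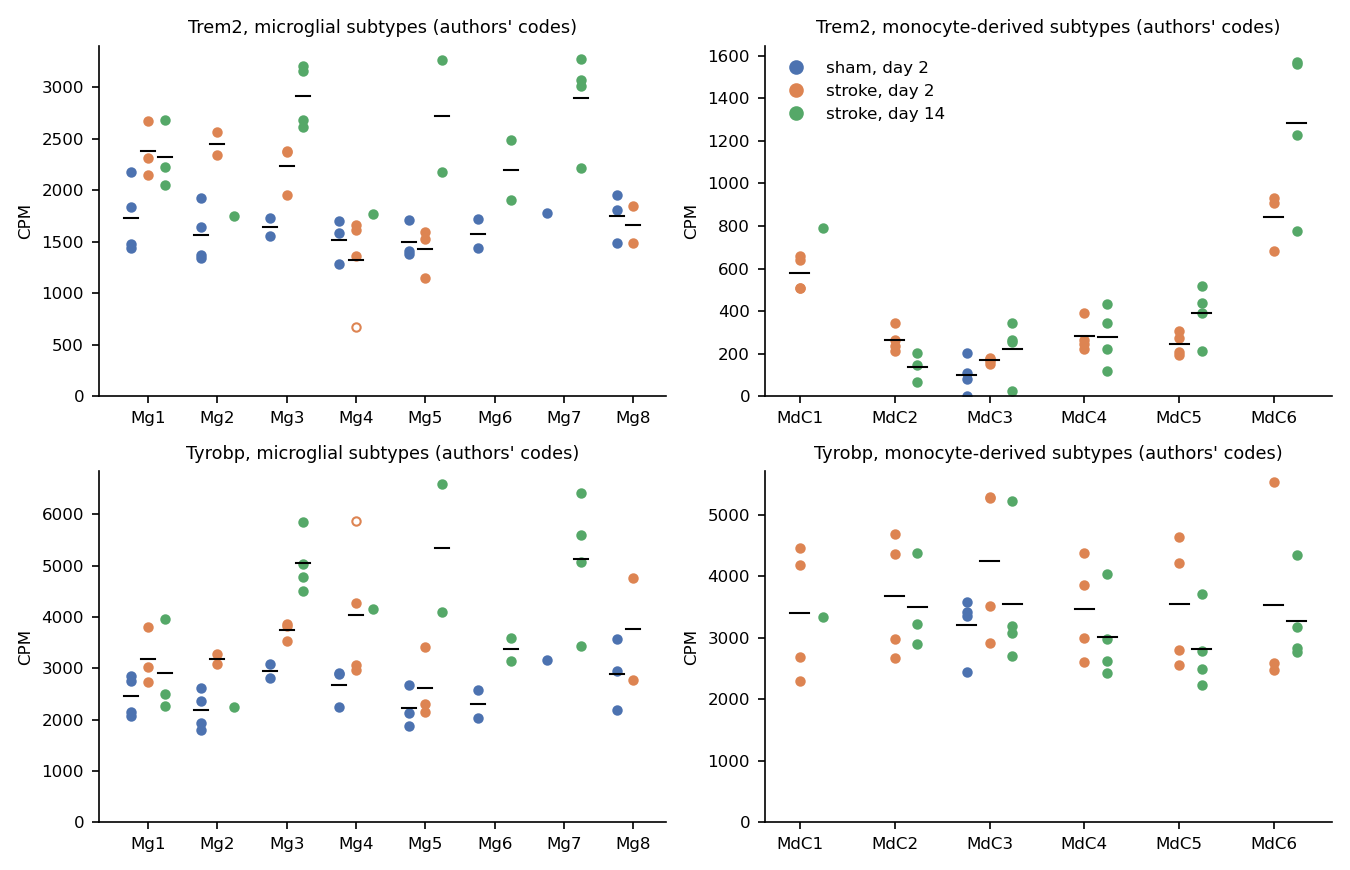
CPM of Trem2 and Tyrobp in the authors' microglial (Mg1 to Mg8) and monocyte-derived (MdC1 to MdC6) subtypes of young brain, with 1 point per library of at least 20 cells and lines at the mean where 2 or more libraries have a value; the Mg4 point at 670 CPM of Trem2 is the third library of day 2. Trem2 in Mg3 and Mg7 at day 14 has means of 2911 and 2891 CPM, above the sham values of every subtype.

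Detection per cell was compared after thinning every cell to 300 counts, which left out shallower cells (2314 of 10874 sham microglia, 379 of 2693 at day 2 and 940 of 5170 at day 14). A Trem2 count was then found in 37.0% ± 5.34 of sham microglia, 34.9% ± 5.05 at day 2 (37.0% ± 3.06 without the third library) and 52.5% ± 4.60 at day 14 (SD over 4 libraries). All 4 day 14 libraries lay above all sham libraries (exact two-sided permutation test, p = 0.0286, the smallest that 4 against 4 allows, and 0.114 adjusted over 12 comparisons). Tyrobp was found in 48.3% ± 5.17 of sham microglia, 64.5% ± 16.8 at day 2 (56.5% ± 6.29 without the third library) and 68.7% ± 4.82 at day 14, again without overlap of day 14 and sham (exact permutation p = 0.0286, adjusted 0.114). Unthinned, a Trem2 count was found in 52.1%, 55.2% (68.4% without the third library) and 78.7% of microglia at median depths of 364 to 668, 189 to 1586 and 476 to 2119 counts. In endothelial cells, which should lack the gene, the thinned share was 0.0964% in sham, 0% at day 2 and 0.293% at day 14, at median depths of 302 to 1059 counts.

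In monocyte-derived cells the thinned Trem2 share was 4.39% ± 3.92 in sham, 9.65% ± 1.34 at day 2 and 15.3% ± 4.57 at day 14. The sham and day 14 libraries overlapped here (exact permutation p = 0.0571, adjusted 0.171). Tyrobp was found in 59.5%, 63.9% and 58.7% of these cells in sham, at day 2 and at day 14.

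The ratio of the genes within a library does not depend on its scaling. In microglia there were 74.3, 66.6, 72.8 and 68.7 Trem2 counts per 100 Tyrobp counts in sham, 61.5, 54.6, 11.4 and 45.7 at day 2, and 62.4, 60.9, 53.3 and 57.6 at day 14. Every stroke library lay below every sham library, and the value of 11.4 came from the library with few microglial markers. The mean log2 ratio was lower than in sham at day 14 (difference -0.27, exact permutation p = 0.0286, adjusted 0.129 over 9 comparisons) and at day 2 (-0.96, with the same exact p and adjusted p), or -0.40 without that library (exact permutation p = 0.0571). No ratio passed the adjustment. An exact p of 0.0286 is the smallest that 4 against 4 allows, so a single ratio could not have passed over 9 comparisons by itself.

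Monocyte-derived cells went the other way, with 8.41, 4.86, 2.87 and 0 Trem2 counts per 100 Tyrobp counts in sham, 11.7, 15.5, 8.99 and 7.22 at day 2, and 33.1, 28.1, 21.9 and 13.5 at day 14. Day 14 lay above sham without overlap, by 2.23 on the log2 scale over the 3 sham libraries with a Trem2 count (exact permutation p = 0.0571, the smallest that 3 against 4 allows, adjusted 0.129). In border-associated macrophages the mean ratio was 14.7, 16.9 and 18.7, and in blood monocytes 2.21 ± 0.444, 1.84 ± 0.196 and 1.24 ± 0.313, in sham, at day 2 and at day 14.

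**Figure D4:**
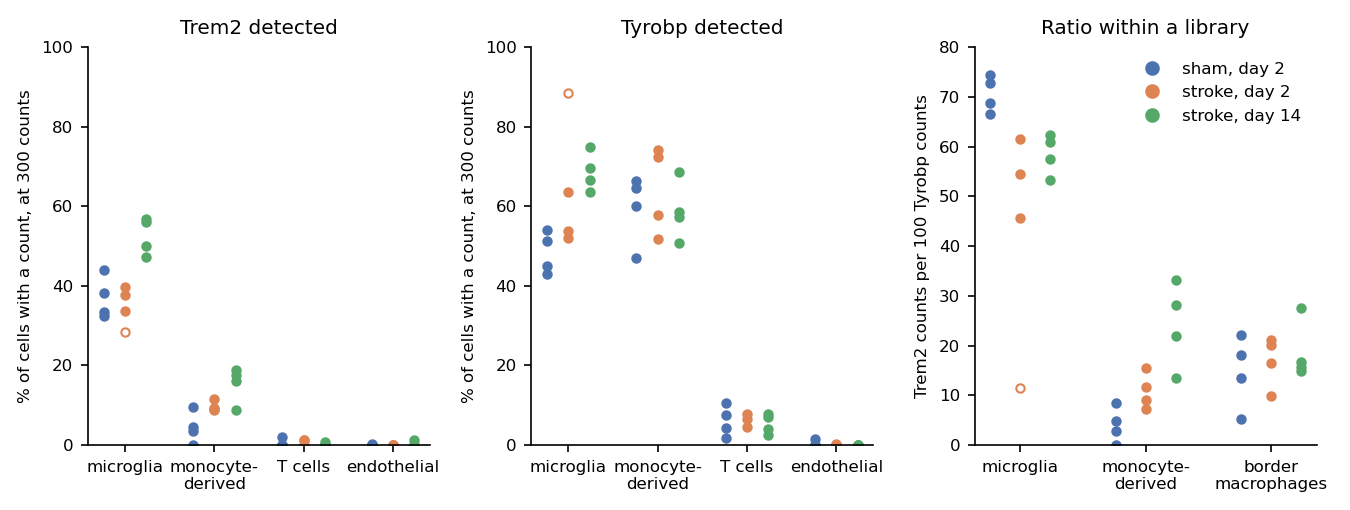
Share of cells with a Trem2 or Tyrobp count after thinning to 300 counts per cell (percent) and Trem2 counts per 100 Tyrobp counts, by young brain group in microglia and monocyte-derived cells, with 1 point per library. In microglia the thinned Trem2 share is 52.5% at day 14 against 37.0% in sham, and the mean Trem2 to Tyrobp ratio is 58.5 against 70.6.

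The other genes of the pathway are given by lists chosen for what they are known to do. In microglia, of 5 tested genes on a list of ligands and extracellular partners of TREM2, 2 were called higher at day 2 and 3 at day 14. These and the microglial counts below are read against 15.7% of all genes called higher at day 2 and 10.6% at day 14. The shares called lower were 15.7% and 4.66%. Apoe and Gpnmb of this list are also on the lists of disease-associated microglia below. Gpnmb, which is among the calls at both times, is not an established ligand or partner of TREM2. Apoe, the apolipoprotein ligand, rose from 993 ± 264 CPM in sham to 53325 ± 15026 CPM at day 14 (edgeR, log2 fold change 6.21 ± 0.62, adjusted p = 1.70e-05). Lgals3, a galectin, rose from 2.70 ± 3.03 to 200 ± 88.5 CPM at day 14 (log2 6.82 ± 0.80) and to 791 ± 748 CPM at day 2 (8.17 ± 0.83), or 420 ± 107 CPM without the third library. Gpnmb was at 0 in every sham library and against a floor of 3 counts over the sham group was at least 14.3-fold higher (day 2) and at least 308-fold higher (day 14). From day 2 to day 14 Apoe rose by 4.85 ± 0.58 on the log2 scale (edgeR, adjusted p = 0.000537), or 5.44 ± 0.45 without the third library (0.000240), where 3.47% of genes were called higher and 3.46% lower.

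Of the receptors in the Trem gene row, Treml2 alone passed the filter on low counts in microglia, and it rose at both times. It went from 18.5 ± 3.24 CPM in sham to 43.5 ± 15.4 at day 2 (edgeR, log2 fold change 1.53 ± 0.26, adjusted p = 0.00110) and 78.7 ± 13.6 at day 14 (2.56 ± 0.25, adjusted p = 1.63e-05). A list of other receptors, some of which pair with DAP12 (Siglece, which is inhibitory, and Treml2 are not known to), had 6 tested genes, of which 2 were called higher and 2 lower at day 2, and 2 higher and 1 lower at day 14. Siglece, an inhibitory sialic acid receptor, fell from 53.0 ± 8.39 to 5.8 ± 1.52 CPM at day 14 (log2 -2.77 ± 0.31), and Siglech, a partner of DAP12 and a marker of homeostatic microglia, fell at day 2 from 3085 ± 263 to 777 ± 480 CPM (-1.77 ± 0.43), or to 977 ± 325 CPM without the third library. Both other adaptors that were tested rose at day 14. Hcst, the adaptor DAP10 beside Tyrobp on the chromosome, went from 55.3 to 92.6 CPM (log2 1.19 ± 0.30, adjusted p = 0.0168), and Fcer1g, the Fc receptor gamma chain, from 1799 to 2665 CPM (1.04 ± 0.28, adjusted p = 0.0241). Fcer1g was also higher at day 2 (0.82 ± 0.28, edgeR, adjusted p = 0.0390). With library size alone neither adaptor was called at either time.

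Signalling genes below DAP12 were more often called lower than higher at day 2. Of 23 tested, 2 were called higher and 9 lower at day 2 (median log2 fold change -0.77, against -0.05 over all genes), and 2 higher and 1 lower at day 14 (median -0.25, against -0.04). With library size alone the day 14 counts were 1 higher and 12 lower, and at day 2 both DESeq2 and library size alone gave 2 higher and 14 lower. Over all 10145 genes the number called lower at day 2 went up as well, from 1594 to 2185 under DESeq2 and 2118 with library size alone, and those called higher were 1588, 1224 and 1273. At day 14 the number of all genes called lower went from 473 to 2755 with library size alone, and those called higher from 1071 to 670. Lat2, a linker phosphorylated by SYK-family kinases, rose at both times, by 1.04 ± 0.20 on the log2 scale at day 2 and 0.98 ± 0.20 at day 14 (edgeR, adjusted p = 0.00235 and 0.00491). Pik3r1, the regulatory subunit of PI3 kinase, fell at both, by -1.40 ± 0.29 and -1.09 ± 0.27 (adjusted p = 0.00334 and 0.0163). Syk itself, named after its value was seen, fell at day 2 (-1.26 ± 0.29, edgeR, adjusted p = 0.00620). Mitf, a transcription factor, fell at day 2 (-1.28 ± 0.38) and was higher again at day 14 than at day 2 (1.91 ± 0.38).

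Genes listed as inhibitors of the pathway moved both ways in microglia, with 3 of 11 called higher and 3 lower at day 2. At day 14 the counts were 2 higher and 2 lower (1 higher and 5 lower with library size alone). Of all genes, 15.7% were called higher and 15.7% lower at day 2, and 10.6% and 4.66% at day 14. With library size alone, 670 of all 10145 genes were called higher at day 14 and 2755 lower, instead of 1071 and 473. Lilrb4a, an inhibitory receptor, rose from 1.14 ± 1.70 CPM in sham to 55.3 ± 35.1 at day 2 (39.2 ± 17.3 without the third library) and 53.6 ± 28.3 at day 14 (edgeR, log2 5.61 ± 0.73 and 6.19 ± 0.71). Ms4a6d, of the membrane family whose human locus is linked to soluble TREM2, rose at day 2 (2.52 ± 0.40) and was lower at day 14 than at day 2 (-2.26 ± 0.40). Cd33, a sialic acid receptor on this list, fell at day 2 (-1.10 ± 0.33, edgeR, adjusted p = 0.0239), and so did Inpp5d, the phosphatase SHIP1 (-0.84 ± 0.30, adjusted p = 0.0487). Of 7 tested enzymes that shed or cut the receptor, Psen2 was called, higher at both times (1.25 ± 0.34 and 1.23 ± 0.32), though not at day 14 with library size alone. A call for 1 gene of 7 is near the share called higher over all genes. Of 10 tested transcription factors, 3 fell at day 2, with Maf at -1.60 ± 0.43 and Mef2c at -1.34 ± 0.45 (6 of 10 fell under DESeq2 and under library size alone, where more of all genes were called lower too), and the median of that list at day 14 was -0.05, against -0.04 over all genes.

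Most tested genes of both lists for disease-associated microglia were called higher at day 14. On the list of the Trem2-independent stage, 3 of 9 tested genes were called higher at day 2 and 8 at day 14. The medians of that list were 0.87 and 2.49 on the log2 scale. On the list of the Trem2-dependent stage, 14 of 18 tested genes were called higher at day 2 and 16 at day 14. Its medians were 1.90 and 3.85. Of all genes, 15.7% were called higher at day 2 and 10.6% at day 14. Whether each listed gene needs Trem2 was not tested. Spp1, osteopontin, went from 2.95 ± 2.04 CPM in sham to 11623 ± 4150 at day 2 (11324 ± 5030 without the third library) and 7465 ± 6637 at day 14 (edgeR, log2 11.88 ± 0.93 and 11.61 ± 0.93). Cst7, a cystatin, was 3.44 ± 0.43 higher on the log2 scale at day 14 than at day 2, with 1820 ± 398 and 184 ± 98.9 CPM (230 ± 45 at day 2 without the third library). H2-D1, an MHC class I gene, was 2.96 ± 0.31 higher at day 14 than at day 2, and Lyz2 rose by 2.17 ± 0.43 at day 2 (1.49 ± 0.24 without the third library) and 3.71 ± 0.46 at day 14. Lyz2 is also on the monocyte marker list, whose sum in microglia moved with the groups as given above for Trem2. Deleting Trem2 was not part of the design, so the names of the lists are background.

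Without the third day 2 library, the counts of these lists in microglia were near those with it. At day 2 the signalling list had 2 higher and 10 lower of 23. The Trem2-independent list had 4 higher and 1 lower of 9, and the Trem2-dependent list 15 higher of 18. Of all genes, 14.5% were called higher there and 13.1% lower. At day 14 all 18 tested genes of the Trem2-dependent list were called higher, and 8 of 9 of the Trem2-independent list. Of all genes, 9.35% were then called higher and 5.06% lower. All 43 list genes called at day 2 and all 38 called at day 14 against sham were also called without it, with the same direction. Of 24 called between day 14 and day 2, 22 were. Under DESeq2 or library size alone, no list gene called in microglia or monocyte-derived cells turned its direction.

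**Figure D5:**
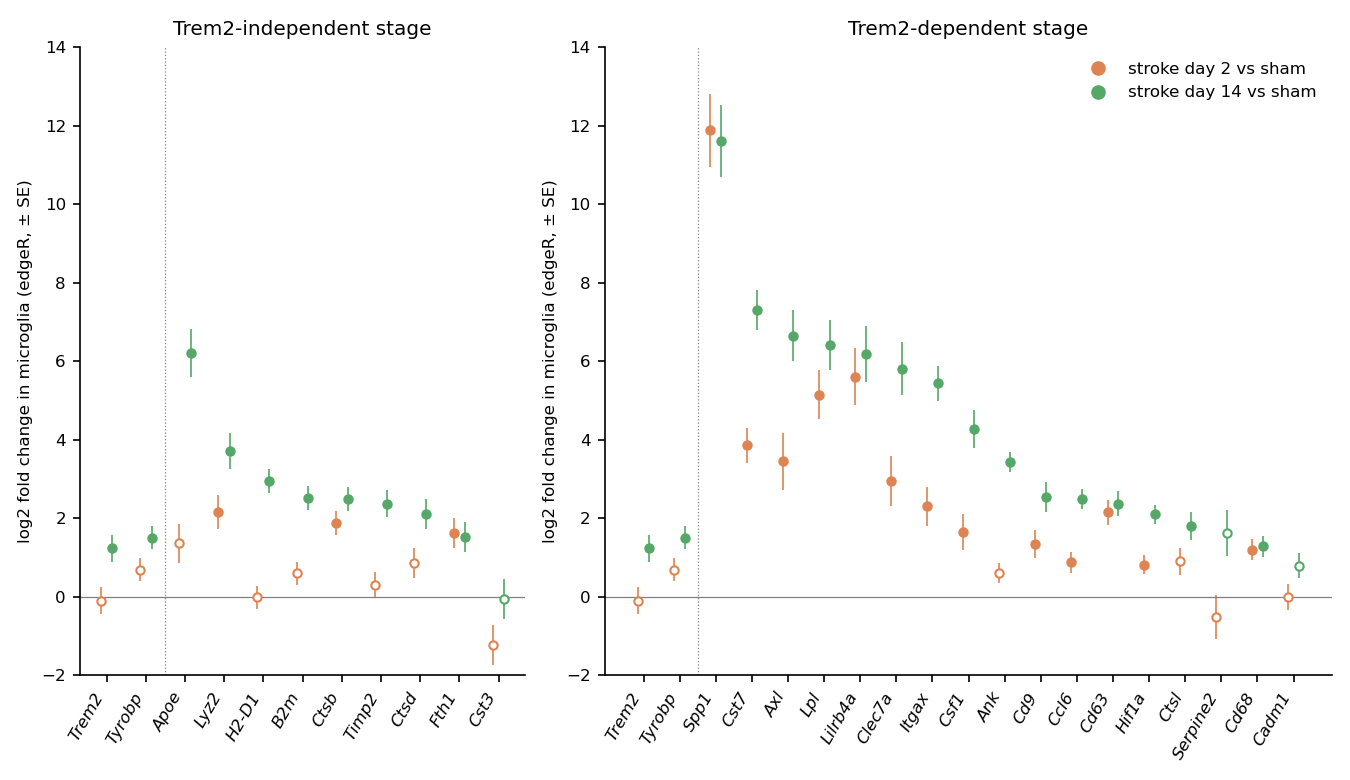
Log2 fold change ± SE (edgeR) in young microglia at stroke day 2 and day 14 against sham for Trem2, Tyrobp and the tested genes of both lists of disease-associated microglia, with filled points for adjusted p under 0.05 and Gpnmb left out because it was at 0 in sham. At day 14 Trem2 (1.23) and Tyrobp (1.51) are filled and lie below most genes of both lists, and at day 2 both are open.

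For monocyte-derived cells some of the same lists are given. Of all genes, 5.66% were called higher and 1.05% lower at day 2, and 4.21% higher and 0.941% lower at day 14. The list of ligands and extracellular partners, with Gpnmb among its calls at both times, had 4 of 6 called higher at day 2. At day 14 it had 2 of 6 (4 of 6 under DESeq2, and 2 higher and 1 lower with library size alone). Apoe rose from 4648 ± 1548 CPM in sham to 48839 ± 7647 at day 14 (edgeR, log2 3.80 ± 0.41, adjusted p = 9.42e-05), and Gpnmb, at 0 in sham, exceeded its floor of 3 counts at least 37.0-fold at day 2 and at least 161-fold at day 14, in the higher direction. Of 4 tested receptors of the Trem row, 3 were called lower at day 14 and Treml2 was called higher. Trem1, an activating receptor of monocytes and neutrophils, fell from 171 ± 45.6 to 42.2 ± 15.4 CPM (-1.75 ± 0.36, adjusted p = 0.00901), Trem3 from 107 ± 34.5 to 14.2 ± 10.6 CPM (-2.52 ± 0.58) and Treml4 from 93.0 ± 72.5 to 6.44 ± 1.73 CPM (-3.59 ± 0.60). Trem2, their neighbour, rose in the same cells. The list of other receptors, which shares Trem1, Trem3 and Treml2 with this row, had 2 of 15 called higher at day 2. At day 14 it had 1 called higher and 4 lower. Of 12 tested inhibitors, 1 was called higher at day 2 and 0 at day 14, and of 7 enzymes that shed or cut the receptor 0 were called.

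Neither of the 2 tested adaptors was called in monocyte-derived cells, and of 23 signalling genes 2 were called higher at each time, with Tec, a kinase, at 1.94 ± 0.45 and 2.46 ± 0.44 on the log2 scale. These counts depended on the model: DESeq2 called 1 adaptor higher at day 2, and 1 signalling gene higher and 1 lower there, and with library size alone no signalling gene was called higher at day 2 and 1 at day 14. The list of the Trem2-independent stage had 4 of 9 called higher at day 2 and 6 at day 14. That of the Trem2-dependent stage had 7 of 16 and 8 of 16. The fitted median log2 fold change of the second list was 1.55 and 1.5, against 0.29 and 0.28 over all genes. With its 5 genes near 0 in sham set at their bound the list's median was 0.36 and 1.35, which has no counterpart over all genes. Ctsd, a lysosomal protease, rose from 239 ± 183 to 3150 ± 574 CPM at day 2 and 4321 ± 2021 at day 14, and Spp1 from 104 ± 87.4 to 7371 ± 4071 and 14713 ± 6263 CPM.

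The genes with the pattern most like each member were found by Pearson's r of log2(CPM + 10), given without a p because cell types share libraries and depth. Over 13 cell types of young brain and blood, the 5 genes most like Trem2 included Itgb5 (r = 0.989), Pla2g15 (0.950), C1qb (0.949) and Adap2 (0.949). Tyrobp was most like Fcer1g (0.974), Myo1f (0.956), Ptpre (0.955), Itgam (0.954) and Cln3 (0.936). The members' likeness to each other was 0.448, so that Tyrobp ranked 887th among 6055 genes by likeness to Trem2. Over the 12 young microglia libraries Trem2 was most like Timp2 (0.936), Plpp1 (0.931), Ppfia4 (0.920), Hvcn1 (0.915) and Vkorc1 (0.907). Tyrobp was there most like Pfdn5 (0.979), Serpinb6a (0.956), Psme1 (0.955), Ggh (0.954) and Fabp3 (0.950), and r between the members was 0.254. This value rests on the third day 2 library: over the other 11 libraries r between Trem2 and Tyrobp was 0.921. The genes most like Trem2 were then H2-M3 (0.961), Crlf2 (0.959), Ly6e (0.948), B2m (0.942) and Hexa (0.941), none of them among the 5 named with all libraries, and 2 of the 5 for Tyrobp remained (Pfdn5 and Psme1). These names depended on the measure, since Spearman's correlation kept 2, 2, 0 and 3 of the 5 in the 4 lists.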

How the data were processed

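Drop-seq libraries (18 of brain, 11 of blood) were used as deposited. The authors deposited expected counts per gene and cell, which are fractional: 0.304% to 4.78% of non-zero values per library were whole. The deposited metadata give each cell's type, subtype and percent of mitochondrial counts. Genome build mm10 and Seurat are named per the submitters' processing notes; the aligner, the step that made counts fractional and the filters on cells are not given in the sources used here. The tables list 19704 genes (young brain), 27514 (aged brain) or 16623 (blood).

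All 106977 deposited cells were kept. Scrublet marked 38 cells (0.0355%) as doublets, against an expected share of 5% given to it. Its marks were not used and doublets were not removed. Whether any had been removed before deposit is not known. Of 106624 barcodes, 345 occurred in more than 1 library. Counts were summed per library and the authors' type (at least 20 cells), rounded, and fitted with edgeR 4.0.16 (quasi-likelihood, TMM, filterByExpr, Benjamini-Hochberg over all genes tested, threshold 0.05) in R 4.3.3. Exact two-sided permutation tests over libraries were used for shares and ratios. Shares of cells were taken after thinning to 300 counts. Library size and number of cells set the precision; a count of 0 allows up to 3 counts, which covers counting error only. Fewer cells of a type and less RNA per cell cannot be told apart in a type's part of a library. The labels give replicates as pools of mice and say nothing more of their independence, so p-values measure the spread between these libraries. In edgeR part of that spread, and in some comparisons between cell types all of it, was taken from other genes.

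Trem2 and Tyrobp and the gene lists were chosen with earlier results of these data known. Of each list the text names at most the 2 highest and 2 lowest called members with a mean of at least 20 CPM. One gene that this rule would name is not reported here. Alternatives were DESeq2 1.42.0, library size without TMM, no filter on low counts, at least 50 cells, cells of at least 800 counts, rounding up, only the compared groups, the replicate block, no library block, sex as a covariate in the aged groups, thinning to 500 counts and each library left out. Added after seeing the data were the mitochondrial split and microglia without the third young day 2 library. Same-numbered libraries were checked for deviating together from their group means: between the stroke groups all 4 pairs of monocyte-derived cells did (r = 0.326 to 0.803), by the data and not by the labels. A batch term from the metadata was not run, as they hold no batch column. On simulated microglia (day 2 against sham, 10404 genes) the edgeR script called 82% of genes raised 4-fold, 53.3% of those lowered 4-fold, and 6.25% and 4.17% of those changed 2-fold. In the simulation 10213 genes were unchanged and all shared a dispersion of 0.144. The real comparison called 31.4% of genes, so the simulated call rates do not give its power.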

Additional observations from a re-analysis of the deposited data

Results flagged for a closer look

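Of 32 groups of 4 libraries tested for a library far from the others, 1 was set apart, and chance alone marks about 1 in 20 such groups. In monocyte-derived cells the fourth young sham library had 2209 CPM of Tyrobp, against 3300 to 3438 CPM in the other 3, a gap of 0.888 of the whole range. This value rests on 43 cells, the same library in which no Trem2 count was found in these cells.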

How the results depend on the processing

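In microglia, Trem2 at day 14 against sham kept its direction and lost its call with library size alone (log2 0.77), no filter on low counts (1.20), counts rounded up (1.21) and only libraries of high mitochondrial share (1.33). At day 14 against day 2 it lost its call with no filter (1.31), counts rounded up (1.38), the replicate block (1.41), the high mitochondrial share (1.43) and only the compared groups (1.27). Tyrobp at day 14 against sham lost its call with counts rounded up (1.48) and the high mitochondrial share (1.66), and at day 14 against day 2 gained one with DESeq2 (0.89) and cells of at least 800 counts (1.06). In monocyte-derived cells Trem2 at day 2 gained a call with DESeq2 (1.41), no filter (1.90), the replicate block (1.75), the mitochondrial split as a term (1.55) and the high mitochondrial share (2.23). Between types at day 14, Tyrobp lost its calls without the library block (-0.55 and -1.29), and DESeq2 added calls for Tyrobp between monocyte-derived cells and microglia at day 2 (0.33) and between granulocytes and neutrophils at day 14 (-0.65). The cause of these shifts was not tested.

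Replicate numbers paired the libraries in monocyte-derived cells of the 2 stroke groups alone, of the brain and blood types checked. In microglia, same-numbered libraries correlated in their deviations at -0.367 to 0.678, with 5 of 12 pairs over 0.1 and 3 of 4 between the stroke groups. There the block ended the call of Trem2 at day 14 against day 2 (adjusted p = 0.0583). The replicate block changed no other call than those given, and moved the genes called in monocyte-derived cells at day 14 against day 2 from 145 to 469.

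Some differences that edgeR did not call changed sign under other settings. For Tyrobp these were aged microglia at day 2 (-0.14 with DESeq2, -0.020 with library size alone, -0.025 with only the compared groups, -0.11 with cells of at least 800 counts), blood monocytes at day 14 against sham (0.089 with the replicate block) and border-associated macrophages at day 14 against sham (-0.043 without the filter). In neutrophils Tyrobp stood at -0.021 without the filter and -0.19 with cells of at least 800 counts (day 14 against day 2), at -0.26 with such cells (day 14 against sham), and at 0.035 without the filter and 0.0041 with the replicate block (day 2 against sham). Border-associated macrophages against microglia in sham gave -0.083 with DESeq2 and -0.13 with library size alone. At day 2, library size alone gave -0.014 for monocyte-derived cells against microglia, which stood at 0.45 and were called by DESeq2, and -0.024 against blood monocytes. Trem2 in border-associated macrophages (day 14 against day 2) stood at 0.047 with cells of at least 800 counts and 0.082 with counts rounded up. The difference in the percent of cells with a count turned to 3.07 for Trem2 in microglia at day 2 unthinned, to 12.4 for Tyrobp in monocyte-derived cells at day 14 unthinned, and to -0.74 for Tyrobp there at day 2 when thinned to 500 counts.

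Leaving out each library in turn, Trem2 ranged from 1.13 to 1.30 (microglia, day 14 against sham), 1.07 to 1.54 (day 14 against day 2), -0.33 to 0.14 (day 2), 1.45 to 2.28 (monocyte-derived cells, day 2), 2.35 to 3.28 (the same, day 14 against sham) and -0.33 to 0.13 (border-associated macrophages, day 14 against day 2). Tyrobp ranged from 0.56 to 0.98 in microglia at day 2 and from -0.026 to 0.11 in aged microglia (below 0 without the male sham library, and at -0.0085 without the second female stroke library). In blood monocytes its range was -0.051 to 0.22 (day 14 against day 2) and -0.21 to 0.046 (day 14 against sham), and in neutrophils -0.070 to 0.19 (day 14 against sham) and -0.16 to 0.089 (day 2). Between types Tyrobp ranged from -0.32 to 0.21 and -0.22 to 0.030 (border-associated macrophages against microglia, sham and day 2), 0.30 to 0.59 (monocyte-derived cells against microglia, sham) and -0.43 to 0.032 (granulocytes against neutrophils, day 2).

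The genes called in microglia moved from 1544 to between 791 and 2573 at day 14 against sham without 1 library and to between 1083 and 3425 under other settings, and from 703 to between 276 and 735 and between 426 and 1157 at day 14 against day 2. At day 2, 3182 genes became 2094 to 3120 and 2265 to 3621. In monocyte-derived cells 542 became 284 to 481 and 285 to 703 (day 2), 416 became 246 to 349 and 259 to 541 (day 14), and 145 became 45 to 191 and 109 to 469. In aged microglia 255 became 0 to 323 and 0 to 466, the 2 genes between aged and young sham became 1 to 8 and 1 to 123, and the 0 of the interaction 0 to 1 and 0 to 17.

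Few cells limit the precision in, among others, sham monocyte-derived cells (43 to 99 cells per library), border-associated macrophages and single subtypes. A batch term was not run, and doublets were not removed.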
